A study of Ovis aries with 6 samples.

Results

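The insulin signalling genes described here encode the insulin receptor, its main adaptors, the kinases downstream of them and the effectors that act on glucose transport and transcription. They were chosen by name, as INSR, IRS1, IRS2, PIK3R1, PIK3CA, PDPK1, AKT1, AKT2, TBC1D4 and FOXO1, and 9 of these 10 names matched 1 gene each among the 24390 genes of the deposited table. AKT1 was not analysed here. In perirenal fat, IRS1, FOXO1, IRS2, PIK3R1 and PIK3CA were higher in lambs than in fetuses, TBC1D4 was lower, PDPK1 was slightly lower with the main scaling though not with library totals alone, and INSR and AKT2 did not pass the test.

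Insulin binds the receptor encoded by INSR, which phosphorylates the docking proteins IRS1 and IRS2. These recruit phosphatidylinositol 3-kinase (PI3-kinase), made of a regulatory subunit such as that of PIK3R1 and a catalytic subunit such as that of PIK3CA, and its lipid product brings the kinases PDPK1 and AKT together at the membrane. In adipocytes AKT2 then inhibits TBC1D4, a brake on the movement of the glucose transporter GLUT4 (SLC2A4) to the cell surface, and excludes the transcription factor FOXO1 from the nucleus. The pathway is known in fat for glucose uptake, lipid storage and the restraint of lipolysis.

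The series followed this depot across a change from brown to white fat. Perirenal fat came from Merino sheep, pure bred and wild type, with samples from 3 lambs and from 3 fetuses at 132 days after conception, with term at 150 days. The labels give the lamb age as 80 days after birth, as 89 days, as 89 ± 7 days and as 12 weeks. The lambs stayed with their ewes until weaning, the ewes of the fetuses were on a maintenance diet, and no animal was treated per the labels, although the titles of the lamb samples include an unexplained VEH. Each library came from 1 animal, so n = 3 per stage throughout.

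The lamb libraries held 15907128 to 17263780 counts and the fetal libraries 17535892 to 19150428. Values below are CPM, a gene's share of the counts of its library, after TMM scaling, a correction of library size for the share that a few abundant genes take. Genes of the mitochondrial genome held 7.37% to 8.29% of the lamb counts and 27.5% to 40.7% of the fetal counts, so scaling bears on small differences. Of 13624 genes tested with edgeR's quasi-likelihood test, 44.7% passed at an adjusted p below 0.05 (22.0% higher and 22.7% lower in lambs). Their median log2 difference, lamb minus fetal, was -0.01. With library totals alone the median was 0.46 and 79.4% of the called genes were higher in lambs, against 49.3% with TMM. All 9 adipocyte markers matched were detected, with summed levels of 29249 to 40471 CPM in lambs and 14086 to 17756 CPM in fetuses. Brown adipocyte markers summed to 529 to 674 CPM in lambs and 1682 to 2851 CPM in fetuses, and macrophage markers to 1290 to 1601 CPM in lambs and 180 to 403 CPM in fetuses. UCP1 held most of the brown adipocyte sum in each library, with a mean of 476 CPM in lambs and 1631 CPM in fetuses. Of the 8 brown adipocyte markers, 5 were lower in lambs and 0 higher. CIDEA and PPARGC1A did not pass, and ZIC1 was not tested. Further shifts were seen in markers of other tissues, since the 8 urothelium and keratin markers summed to 0.499 to 0.691 CPM in lambs and 53.7 to 187 CPM in fetuses, with all 8 lower in lambs, and the 4 red cell markers matched summed to 30.5 to 56.4 CPM in lambs and 358 to 1272 CPM in fetuses. The part of these shifts in the results below was not tested. In such bulk tissue, fewer cells of a type and less RNA per cell cannot be told apart.

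All 9 insulin signalling genes passed the filter on low counts. Of them 7 passed the test, 5 higher and 2 lower in lambs, against 44.7% of all genes. Their median log2 difference was 0.62. With TMM scaling, the 3 lamb values did not overlap the 3 fetal values for 8 of the 9 genes, as for 57.7% of all genes tested. AKT2, which did not pass the test, is among the 8 by a very small gap, 220.3 CPM in lamb 1 and 220.4 CPM in fetus 1.

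**Figure D1:**
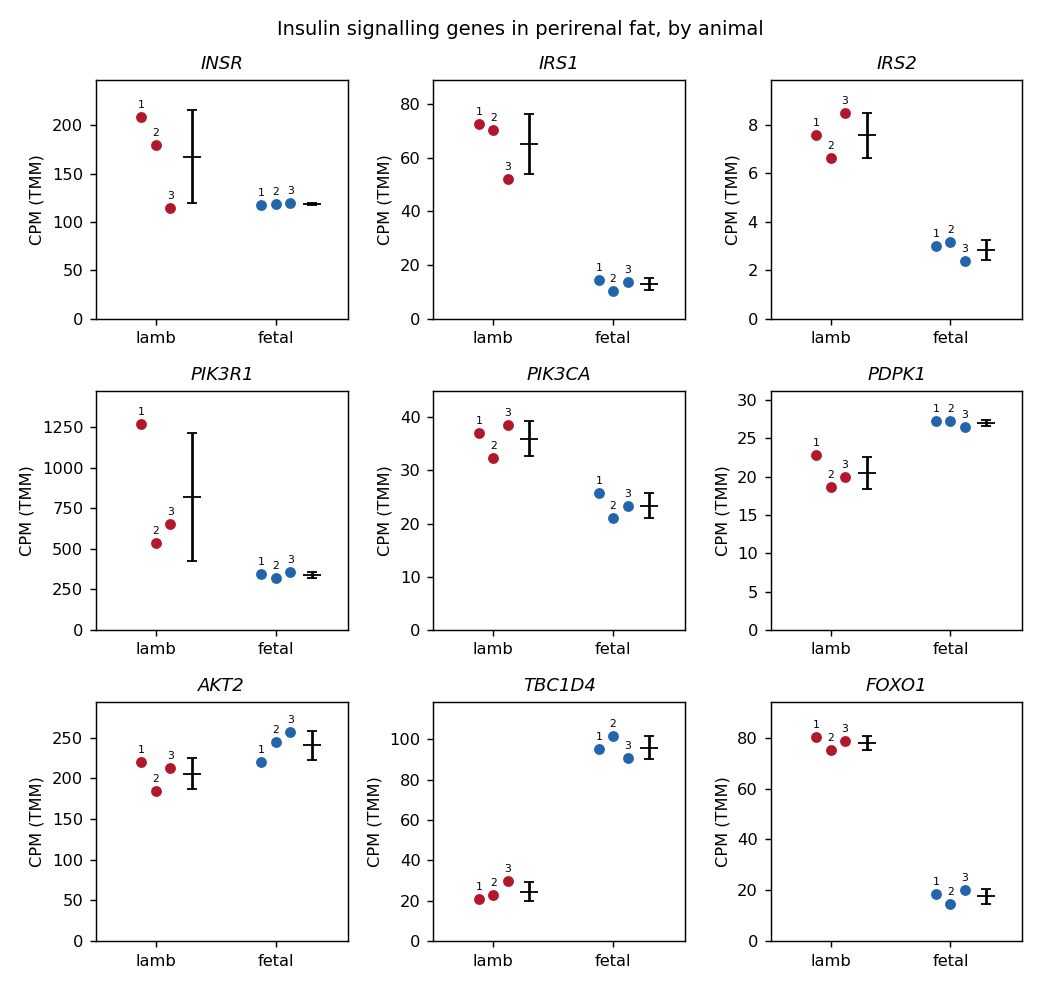
CPM of the 9 genes in each animal, lambs (red) left of fetuses (blue), numbered by library, with the stage mean and SD in black beside the points and each axis starting at 0. IRS1, IRS2, PIK3R1, PIK3CA and FOXO1 lie higher in every lamb than in any fetus, TBC1D4 and, with this scaling, PDPK1 lower, and INSR overlaps.

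INSR, the receptor gene (ENSOARG00000000285, chromosome 5, 13733596 to 13879145 on Oar v3.1), stood at 209, 179 and 115 CPM in the lambs, against 117, 119 and 119 CPM in the fetuses. Lambs 1 and 2 were above every fetus and lamb 3 was just below them all. The fetal values were nearly equal, with a mean of 118.6 ± 0.99 CPM against 167.6 ± 48.1 CPM in lambs (SD). The log2 difference was 0.50 ± 0.21 (SE), short of the threshold (adjusted p = 0.0887). INSR passed without lamb library 3 (log2 difference 0.71, adjusted p = 0.00652) and with library totals alone (log2 difference 0.98, adjusted p = 0.00634).

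IRS1, the docking protein gene held to carry most insulin signalling in mature adipocytes (ENSOARG00000020473, chromosome 2, 228093401 to 228097866), had 72.7, 70.4 and 52.2 CPM in lambs and 14.4, 10.3 and 13.7 CPM in fetuses. Even the lowest lamb was far above the highest fetus. It was 5.07-fold higher in lambs, a log2 difference of 2.34 ± 0.19 (adjusted p = 1.21e-04), and 5.39% of all genes tested differed by at least as much in either direction. Among the 9 genes this was the largest difference with both scalings.

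IRS2, the second docking protein gene and itself a known FOXO target (ENSOARG00000005897, chromosome 10, 84010819 to 84011944), was at 7.55, 6.64 and 8.49 CPM in lambs and 2.99, 3.16 and 2.38 CPM in fetuses. All lambs were higher, by 2.66-fold (log2 difference 1.41 ± 0.21, adjusted p = 0.00144). The counts behind these values were few, 128 to 170 in lambs and 40 to 50 in fetuses. The gene model spans 1126 bases. IRS1 and IRS2 thus both rose, and their levels in CPM are not comparable with each other, because CPM takes no account of length.

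PIK3R1, the gene of the main regulatory subunit of PI3-kinase (ENSOARG00000005870, chromosome 16, 11385141 to 11470669), had the widest spread of the 9 genes in lambs. It was at 1270, 533 and 654 CPM in lambs and 347, 318 and 355 CPM in fetuses, so that lamb 1 held about as much as the other lambs together while all lambs were above all fetuses. The log2 difference was 1.27 ± 0.31 (adjusted p = 0.0132). Without lamb library 1 it was 0.81, with adjusted p = 0.00906.

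PIK3CA, which encodes the alpha catalytic subunit of PI3-kinase (ENSOARG00000020711, chromosome 1, 206057727 to 206086700), stood at 37.1, 32.4 and 38.6 CPM in lambs and 25.7, 21.1 and 23.3 CPM in fetuses. The stages did not overlap, and the gene was 1.54-fold higher in lambs (log2 difference 0.62 ± 0.13, adjusted p = 0.00569). Its increase was smaller than that of PIK3R1 in these values.

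PDPK1, which activates AKT by phosphorylation (ENSOARG00000018633, chromosome 24, 2046607 to 2079956), had 22.8, 18.6 and 20.02 CPM in lambs and 27.2, 27.3 and 26.5 CPM in fetuses. Every lamb was lower, with a log2 difference of -0.40 ± 0.12 (adjusted p = 0.0272). This call rests on the setting. It was lost on leaving out fetal library 1, 2 or 3 or lamb library 2 or 3, with adjusted p between 0.0621 and 0.0823 and log2 differences between -0.41 and -0.33. Blocking on the replicate number gave adjusted p = 0.0568, and with library totals alone the difference was 0.076 (adjusted p = 0.733).

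AKT2, the AKT isoform tied to insulin-stimulated glucose transport in fat and muscle (ENSOARG00000006526, chromosome 14, 48772301 to 48801288), stood at 220.3, 184 and 213 CPM in lambs and 220.4, 244 and 256 CPM in fetuses. Lamb 1 and fetus 1 were all but equal, and the other animals were close to them. The log2 difference was -0.22 ± 0.13, short of the threshold (adjusted p = 0.194), and it did not pass in any alternative, where adjusted p lay between 0.108 and 0.430. With library totals alone it had the opposite sign, at 0.25.

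TBC1D4, the AKT substrate that holds back GLUT4 (ENSOARG00000015582, chromosome 10, 50784388 to 50869841), was the gene with the clearest decrease. It had 20.6, 22.9 and 29.9 CPM in lambs and 95.1, 101.7 and 90.6 CPM in fetuses. The highest lamb was still below a level of 90.6 CPM, the lowest fetus. TBC1D4 was 3.92-fold lower in lambs (log2 difference -1.97 ± 0.16, adjusted p = 1.25e-04), and -1.49 with library totals alone. Skeletal muscle also expresses TBC1D4, and muscle markers summed to 8.05 to 11.4 CPM in lambs and 27.5 to 132 CPM in fetuses, with the highest sum in fetal library 1. Without that library TBC1D4 was at -1.98 (adjusted p = 6.51e-04), but the muscle sums of fetal libraries 2 and 3, 27.5 and 46.9 CPM, were also above those of all lambs. In these libraries most of the sum was CKM (17.1 and 42.9 CPM) and MB (7.06 and 2.44 CPM). TNNI2 was also above the lambs, at 1.47 and 0.894 CPM. ACTA1, at 1.69 and 0.477 CPM, was not above the lamb range of 1.04 to 3.32 CPM. MYH1, MYLPF and TNNC2 had at most 2 counts in either library. The brown adipocyte marker sums, given above, were also higher in every fetus than in any lamb. The part of muscle or of brown adipocytes in the difference was not tested.

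FOXO1, the transcription factor gene (ENSOARG00000006012, chromosome 10, 22237525 to 22238862), had 80.3, 75.0 and 78.6 CPM in lambs and 18.4, 14.4 and 19.97 CPM in fetuses. The lambs were close to each other and all far above the fetuses. FOXO1 was 4.43-fold higher in lambs, a log2 difference of 2.15 ± 0.14 (adjusted p = 7.11e-05), with the smallest adjusted p of the 9 genes. Leaving out any 1 library kept the difference between 2.02 and 2.25. The gene model spans 1338 bases on the chromosome that also holds IRS2 and TBC1D4.

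**Figure D2:**
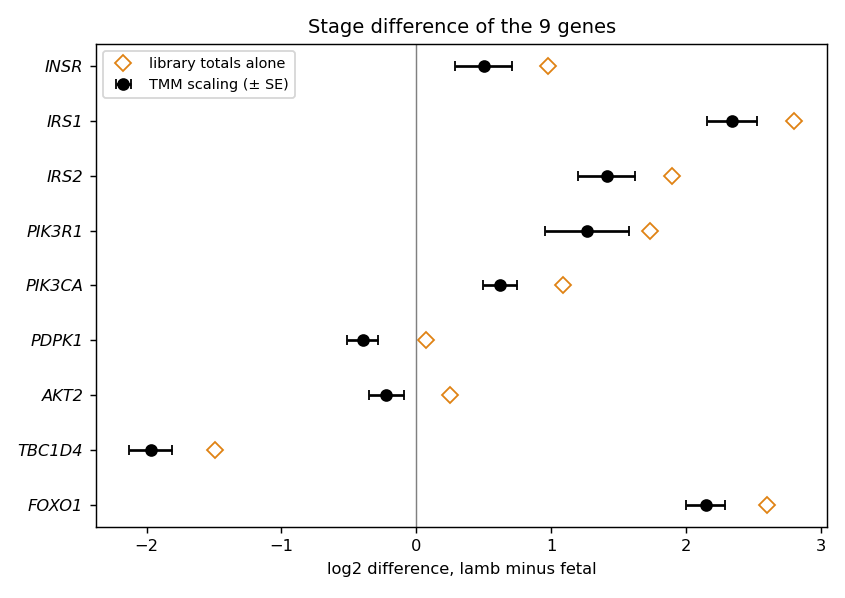
Log2 differences, lamb minus fetal, of the 9 genes with TMM scaling (black, ± SE) and with library totals alone (orange diamonds). IRS1 and FOXO1 lie above 2 and TBC1D4 at -1.97 with TMM, while PDPK1 and AKT2 change sign between the scalings.

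The authors' deposited table, which holds their own edgeR comparison, gave the same 6 genes other than PDPK1 an adjusted p below 0.05. In the authors' deposited table IRS1 had a fold of 5.12, FOXO1 of 4.47, IRS2 of 2.69, PIK3R1 of 2.43 and PIK3CA of 1.56 in lambs over fetuses, and TBC1D4 was 3.88-fold lower (printed there as -3.88). INSR had adjusted p = 0.121, PDPK1 0.208 and AKT2 0.687 in the authors' deposited table. All 9 directions were those given above.

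Per gene length, the authors' deposited table gives a mean RPKM for each stage, without its spread over animals. In lambs the order of the levels was AKT2 (162 RPKM), PIK3R1 (103 RPKM), FOXO1 (50.2 RPKM), INSR (28.8 RPKM), IRS2 (15.8 RPKM), IRS1 (15.7 RPKM), PIK3CA (12.4 RPKM), PDPK1 (10.6 RPKM) and TBC1D4 (7.87 RPKM). In fetuses it was AKT2 (138 RPKM), PIK3R1 (32.0 RPKM), TBC1D4 (20.9 RPKM), INSR (15.4 RPKM), PDPK1 (10.7 RPKM), FOXO1 (8.38 RPKM), PIK3CA (6.41 RPKM), IRS2 (4.29 RPKM) and IRS1 (2.30 RPKM). TBC1D4 thus stood last in lambs but behind only AKT2 and PIK3R1 in fetuses, and FOXO1 was above INSR in lambs but below it in fetuses. AKT2 and PIK3R1 led at both stages. Neighbours such as IRS2 and IRS1 in lambs cannot be ordered without a spread, RPKM is not TMM-scaled, and the levels of IRS2 and FOXO1 rest on their short gene models.

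**Figure D3:**
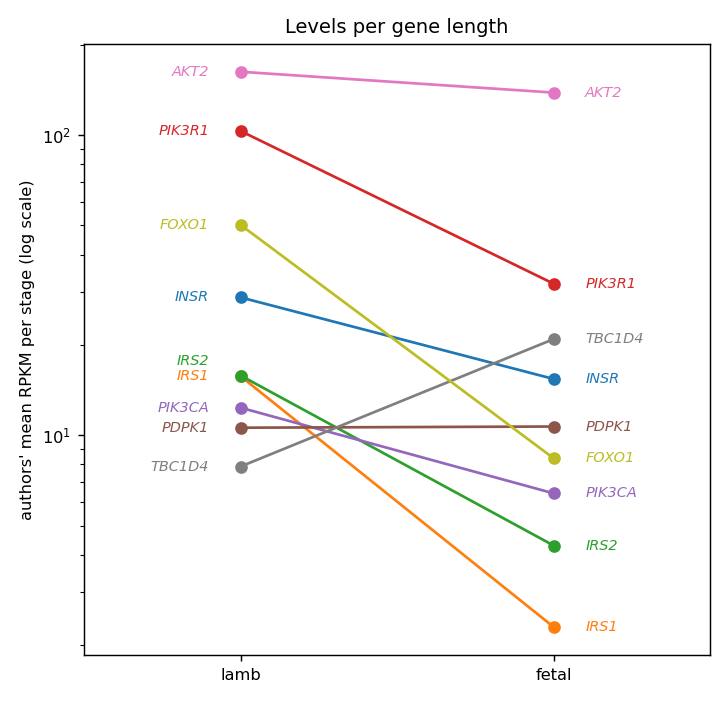
The authors' mean RPKM of the 9 genes per stage on a log axis, lambs on the left and fetuses on the right, with a line per gene. TBC1D4 is the only line that rises clearly towards the fetal side, and IRS1 and FOXO1 show the steepest slopes.

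Ratios of the counts of 2 genes within a library do not depend on library scaling, and 4 were compared. With 3 animals against 3, the two-sided exact permutation test cannot go below p = 0.1. The log2 ratio of IRS1 to IRS2 was 3.27, 3.41 and 2.62 in lambs and 2.27, 1.70 and 2.52 in fetuses. All lambs were higher, by 0.93 on average (exact p = 0.1, 0.133 adjusted over the 4 ratios), in a design that cannot reach the threshold.

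The log2 ratio of PIK3R1 to PIK3CA was 5.10, 4.04 and 4.08 in lambs and 3.75, 3.91 and 3.93 in fetuses. The stages did not overlap (difference 0.54, exact p = 0.1, adjusted 0.133), but lamb 1 stood apart, and without it the difference was 0.20. The log2 ratio of INSR to IGF1R, the gene of the related IGF receptor, was 3.70, 3.35 and 3.19 in lambs and 2.58, 3.07 and 3.13 in fetuses (difference 0.49, exact p = 0.1, adjusted 0.133). Without fetal library 1 that difference was 0.32. For FOXO1 to FOXO3, the gene of a second FOXO factor, the log2 ratios were -2.00, -1.86 and -1.82 in lambs and -2.30, -2.41 and -1.71 in fetuses. These overlapped (difference 0.25, exact p = 0.4, adjusted 0.4), with a difference of 0.12 without fetal library 2 and 0.46 without fetal library 3.

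**Figure D4:**
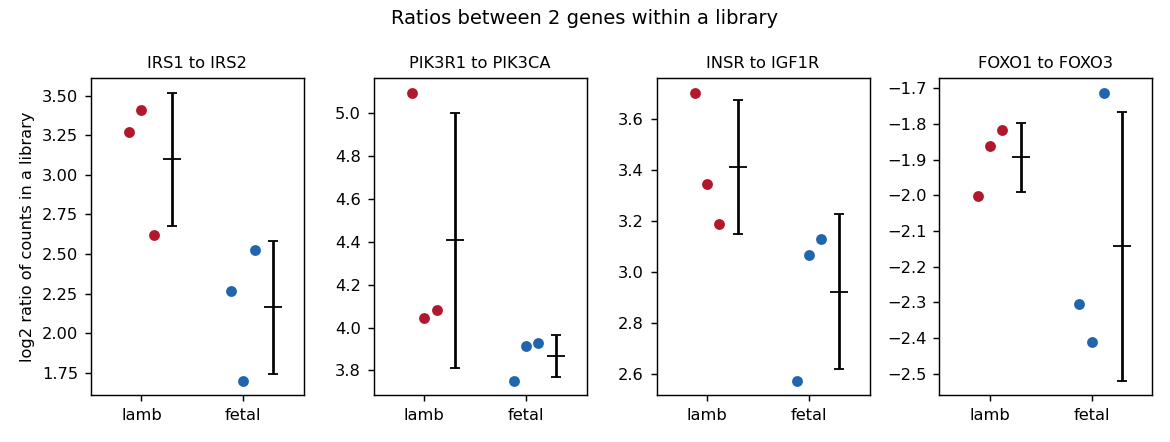
Log2 ratios of the counts of 2 genes within each library, lambs (red) left of fetuses (blue), with stage means and SD in black; each panel has its own axis. The lamb points lie above the fetal points for IRS1 to IRS2, PIK3R1 to PIK3CA and INSR to IGF1R, and overlap for FOXO1 to FOXO3.

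The other genes of the pathway were read from 5 lists. Of their 104 genes tested, 32 were higher and 24 lower in lambs and 48 did not pass, with a median log2 difference of 0.14. Over all genes tested 22.0% were higher, 22.7% lower and 44.7% called in either direction, and the counts of each list below are to be read against these shares. With library totals alone 54 were higher and 9 lower.

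Among the 20 tested genes that act at the receptor and its adaptors, 7 rose, 4 fell and 9 did not pass (median log2 difference 0.37). The related adaptors GRB10 and GRB14, which bind the active receptor and inhibit it, moved in opposite directions. GRB10 had 101, 82.2 and 63.2 CPM in lambs and 27.5, 25.6 and 25.6 CPM in fetuses, a log2 difference of 1.65 ± 0.18 (adjusted p = 3.65e-04). GRB14 had 1.28, 3.78 and 1.45 CPM in lambs and 15.4, 19.9 and 8.82 CPM in fetuses, a log2 difference of -2.76 ± 0.47 (adjusted p = 0.00281). Neither gene overlapped between the stages. For GRB14, though, the authors' deposited table lists a mean of 8.85 RPKM in lambs and 10.4 RPKM in fetuses, a far smaller gap than in the counts, and the cause was not tested. ENPP1, a membrane protein that inhibits the receptor, rose by 0.88 ± 0.11 on the log2 scale, and SH2B1, an adaptor that enhances receptor signalling, fell by 1.22 ± 0.11. IGF1R stood at 16.04, 17.6 and 12.6 CPM in lambs and 19.7, 14.2 and 13.7 CPM in fetuses, overlapping throughout (log2 difference -0.041 ± 0.19, adjusted p = 0.878). Its sign turned without fetal library 1 (0.14), without lamb library 3 (0.087) and with library totals alone (0.43).

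Calls of several genes in this list were less firm. SOS1, the RAS activator recruited by GRB2, was at -0.49 ± 0.11, but at -0.033 with library totals alone. SOCS3, which promotes the loss of IRS proteins, was at 0.92 ± 0.26 (adjusted p = 0.0214), a call lost with the block (0.0551) and without fetal library 1 (0.0605), fetal library 2 (0.0743) or lamb library 2 (0.0628). PRKCQ, a kinase that can phosphorylate IRS1, was at -0.99 ± 0.29, lost with the block (adjusted p = 0.0567), with library totals alone (0.196) and without fetal library 2 (0.103), lamb library 2 (0.0769) or lamb library 3 (0.0743). PTPRE, a tyrosine phosphatase gene, was at 0.69 ± 0.24 (adjusted p = 0.0490) and overlapped between the stages. Of the fits without 1 library it kept its call without lamb library 1 alone, the other 5 giving adjusted p between 0.0511 and 0.144. With all libraries the call was lost with upper quartile factors (adjusted p = 0.0591) and with limma-voom (0.0676). It was also lost with no filter beyond 1 count (0.0502) and with a filter of 5 CPM in 3 libraries (0.0520). INSRR and IRS4 did not pass the filter on low counts, at mean levels of 0.154 and 0.035 CPM in lambs and 0.239 and 0.302 CPM in fetuses.

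Of the 17 tested genes for other PI3-kinase subunits and lipid phosphatases, 1 was higher, 5 were lower and 11 did not pass (median log2 difference -0.070). PIK3R6 and PIK3CG, subunits of the gamma form of PI3-kinase that is best known from leukocytes, were both lower. PIK3R6 had 1.88, 3.68 and 1.70 CPM in lambs and 9.08, 10.6 and 11.6 CPM in fetuses (log2 difference -2.11 ± 0.31, adjusted p = 0.00150). PIK3CG was at -1.04 ± 0.27, a call lost without fetal library 3 (adjusted p = 0.0592) and with library totals alone (0.161). The summed macrophage markers, given above, were higher in lambs. MRC1 held most of the sum in each lamb, with a mean of 992 CPM in lambs and 57.6 CPM in fetuses. Of the 9 markers matched, 6 were higher in lambs and 0 lower, while CSF1R, C1QB and C1QC did not pass. The part of these cells in the differences of PIK3R6 and PIK3CG was not tested. INPPL1, the phosphatase SHIP2 that removes the lipid product of PI3-kinase, fell by 0.98 ± 0.13. The class II kinase genes diverged, PIK3C2A rising by 0.98 ± 0.18 and PIK3C2B, at -0.97 ± 0.13, falling, a call that library totals alone did not give (adjusted p = 0.0529). In the authors' deposited table the mean RPKM of PIK3C2A differed less than its counts, at 57.8 RPKM in lambs and 43.1 RPKM in fetuses.

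Among the 23 tested AKT regulators and genes of the mTOR complexes, 7 rose, 4 fell and 12 did not pass (median log2 difference -0.11). SGK1, a kinase related to AKT that is also activated by PDPK1, rose by 1.56 ± 0.18. RHEB, the GTPase that activates mTOR complex 1, rose by 1.04 ± 0.13, the pseudokinase gene TRIB2 by 1.06 ± 0.13, and PPP2CA, a catalytic subunit of the phosphatase that acts on AKT, by 0.89 ± 0.12. MTOR itself was at -0.66 ± 0.16 and its partner RPTOR at -0.60 ± 0.16. Both calls were lost with library totals alone (adjusted p = 0.428 and 0.629), and that of RPTOR also without fetal library 2 (0.0617) or fetal library 3 (0.0578). TRIB3, an AKT inhibitor in liver, was at -0.85 ± 0.24, lost with library totals alone (adjusted p = 0.238) and without fetal library 1 (0.0661), lamb library 2 (0.0704) or lamb library 3 (0.0660). PHLPP1, a phosphatase of AKT, was at -0.39 ± 0.13 (adjusted p = 0.0447) and, of the fits without 1 library, kept its call without lamb library 2 alone, with adjusted p up to 0.136 in the others. With all libraries the call was lost with DESeq2 size factors in edgeR (adjusted p = 0.0512) and with the DESeq2 Wald test (0.0684). It was also lost with no filter beyond 1 count (0.0715) and with the replicate block (0.0707). PHLPP1 was at 0.083 with library totals alone.

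Of the 24 tested genes of glucose transport, glycogen and antilipolysis, 2 rose, 8 fell and 14 did not pass (median log2 difference -0.20). SLC2A4, the gene of GLUT4, had 16.3, 8.30 and 20.2 CPM in lambs and 47.8, 65.3 and 68.9 CPM in fetuses. All lambs were lower, with a log2 difference of -2.02 ± 0.31 (adjusted p = 0.00174) beside the -1.97 of TBC1D4, which governs its traffic. Muscle also expresses SLC2A4. The muscle marker sums, given above, were higher in every fetus than in any lamb, in fetal libraries 2 and 3 mostly through CKM and MB. Among the fetuses, library 1 had the highest muscle sum and the lowest SLC2A4 level, 47.8 CPM. The brown adipocyte marker sums, given above, were also higher in every fetus than in any lamb. The part of muscle or of brown adipocytes in the difference was not tested. LNPEP, the aminopeptidase that resides in GLUT4 vesicles, was at -1.24 ± 0.34 (adjusted p = 0.0211), a call lost without fetal library 1 (0.0594), fetal library 3 (0.0520) or lamb library 3 (0.0613) and with library totals alone (0.0766). TBC1D1, the close relative of TBC1D4, was in contrast at 39.2, 52.6 and 45.7 CPM in lambs and 32.4, 25.2 and 27.7 CPM in fetuses, higher in every lamb (log2 difference 0.69 ± 0.15, adjusted p = 0.00798).

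HK2, the insulin-induced hexokinase gene, had 3.70, 6.58 and 7.09 CPM in lambs and 1.55, 0.588 and 1.37 CPM in fetuses (log2 difference 2.28 ± 0.41, adjusted p = 0.00337). Its mean in the authors' deposited table, 11.1 RPKM in lambs and 4.40 RPKM in fetuses, differed less than the counts did. PPP1R3B, which targets protein phosphatase 1 to glycogen, fell by 1.94 ± 0.18. PPP1R3C, of like function, was at -0.89 ± 0.31 (adjusted p = 0.0473), which was lost with library totals alone, with the block and without fetal library 1 or 3 or lamb library 1 or 3 (adjusted p between 0.0852 and 0.298). PDE3B, the phosphodiesterase through which AKT restrains lipolysis, was named after its values were seen. It averaged 478 ± 69.2 CPM in lambs and 432 ± 48.8 CPM in fetuses and did not pass (adjusted p = 0.481), except with library totals alone (adjusted p = 0.0108).

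FOXO factors and genes known as FOXO targets formed the last list. Leaving out the member genes in it, 15 of 20 tested rose, 3 fell and 2 did not pass, and the list's median log2 difference was 1.13 beside -0.01 over all genes tested. Many of these genes answer to other factors too. FOXO3 had 322, 273 and 277 CPM in lambs and 90.8, 76.7 and 65.5 CPM in fetuses, higher in every lamb (log2 difference 1.90 ± 0.16, adjusted p = 1.44e-04). PDK4, which blocks pyruvate oxidation, had 3773, 3770 and 4734 CPM in lambs and 101, 166 and 60.6 CPM in fetuses, a log2 difference of 5.23 ± 0.41 (adjusted p = 1.16e-04). BNIP3, a mitophagy receptor gene, had 759.5, 914 and 456 CPM in lambs and 41.4, 55.4 and 41.5 CPM in fetuses (log2 difference 3.95 ± 0.29). The transcription factor gene KLF15 rose by 2.02 ± 0.22 and SESN1, an inhibitor of mTOR complex 1, by 1.98 ± 0.21. FOXO4, at 0.41, and FOXO6, at 1.20, were named after their values were seen and were called higher less firmly. Both calls were lost with the replicate block and on leaving out any 1 fetal library, among other settings.

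Members of that list that fell were BCL6, a transcriptional repressor gene, by 2.16 ± 0.28, the mitochondrial antioxidant gene SOD2 by 1.07 ± 0.16 and KLHL24 by 0.95 ± 0.15. IGFBP1 did not pass the filter on low counts. The adipocyte and macrophage marker sums, given above, were higher in lambs beside the increases in this list. Of the 9 adipocyte markers matched, 7 were higher in lambs and 0 lower, while PLIN1 and DGAT2 did not pass.

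**Figure D5:**
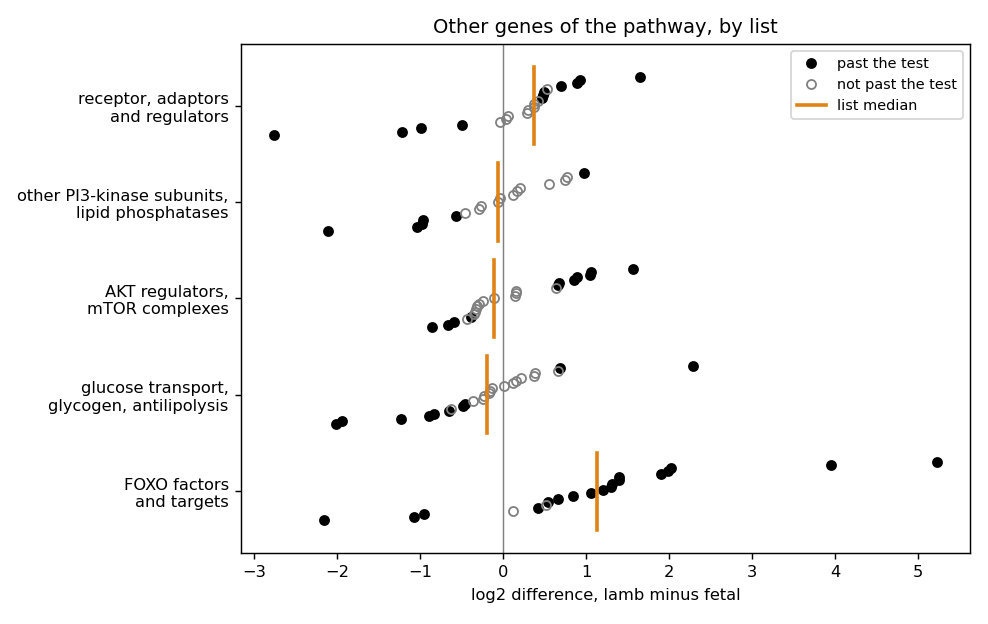
Log2 differences, lamb minus fetal, of the tested genes in the 5 pathway lists, without the 9 genes themselves; filled points passed the test, open points did not, and orange bars are list medians. FOXO factors and targets have the highest median, 1.13, and glucose transport, glycogen and antilipolysis the lowest, -0.20.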

How the data were processed

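RNA was sequenced as single-end 50 bp reads from perirenal fat of 3 lambs and 3 fetuses. Mapping by the authors was with CLC Genomics Workbench 7.0 against Ensembl models of Oar v3.1, per the series' design text. How strand and reads with several placements were treated was not stated there. The deposited table holds read counts per gene and animal, the authors' mean RPKM per stage, and the signed fold score and p-value of the authors' own edgeR test; its 6 RPKM columns per library were not used, because a header repeats. No counted gene with more than 2 reads in a library overlaps a member gene.

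Counts were tested with edgeR 4.0.16 in R 4.3.3 by the quasi-likelihood F test, after filterByExpr and TMM scaling, with Benjamini-Hochberg adjustment over all 13624 genes. The SE is the log2 difference divided by the root of F. CPM uses TMM-adjusted library sizes. The 15 alternatives were other scalings and filters, no mitochondrial genes, limma-voom (limma 3.58.1), DESeq2 1.42.0, a replicate block and leaving out each library. A second, prefiltered table was not used. The procedure was checked on simulated data, where it recovered 48 of 100 changes of 2-fold and 100 of 100 of 4-fold. It called 1 of 13535 unchanged genes. The simulated counts had the same dispersion for all genes and lacked the stage difference in mitochondrial share seen here. A gene that did not pass is thus not shown to be unchanged. Ratios were compared with exact permutation tests in scipy 1.17.1.

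The member genes and the lists were chosen with earlier results of these data known, and no list is independent evidence. Named pathway genes are IGF1R, FOXO3, SLC2A4 and GRB10, and from each list up to 4 called genes with the largest change in each direction, at 1 CPM or more. Of 5 planned ratios the one with AKT1 was dropped. Older symbols PPARG2, HSL and HBBB stand for PPARG, LIPE and HBB in the marker lists.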

Additional observations from a re-analysis of the deposited data

How the results depend on the processing

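Depth limits IRS2 most, with 40 to 170 counts per library. IRS1, IRS2, PIK3R1, PIK3CA, TBC1D4 and FOXO1 kept their direction and their call in all 15 alternatives. The 2 reversals among the 9 genes came with library totals alone, where PDPK1 was at 0.076 and AKT2 at 0.25; that scaling moves the median of all genes from -0.01 to 0.46. On leaving out 1 library, 6 or 7 of the 9 genes passed, 4798 to 5654 of all genes against 6095, and 41 to 55 of the pathway genes against 56. The differences in log2 ratio then lay between 0.70 and 1.17 for IRS1 to IRS2, 0.20 and 0.72 for PIK3R1 to PIK3CA, 0.32 and 0.60 for INSR to IGF1R, and 0.12 and 0.46 for FOXO1 to FOXO3.

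The receptor and adaptor list had 11 calls, but 7 with a filter of 5 CPM in 3 libraries, with the replicate block, or without fetal library 1 or lamb library 2, and 6 without fetal library 2. The glucose transport list had 10, but 6 without fetal library 1. The list of FOXO factors and targets had 18, but 12 without fetal library 3 and 13 without lamb library 1. The replicate numbers are shared by the stages. Deviations from the stage means correlated at -0.019, -0.12 and 0.029 for the 3 same-numbered pairs, and between -0.11 and 0.13 for the others. No pairing by number was seen, but with 3 animals per stage such correlations cannot exclude one. With the replicate block 5353 genes and 6 of the 9 passed. Paired by number, the ratio differences were the same, with exact sign-flip p of 0.25 or more, the smallest 3 pairs allow.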

Other observations

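Within the lambs, INSR, PIK3R1 and the FOXO target genes SESN3 and CCNG2 had their highest level in the same animal, lamb 1. So did IRS1, PDPK1, AKT2 and FOXO1, whereas IRS2, PIK3CA and TBC1D4 were highest in lamb 3. The share of all genes with their highest level in lamb 1 was not computed. SESN3 had 46.0, 19.2 and 17.4 CPM in lambs 1, 2 and 3 and 14.1, 7.50 and 11.6 CPM in the fetuses. CCNG2 had 123, 69.4 and 53.4 CPM in these lambs and 44.8, 49.9 and 42.3 CPM in the fetuses. Without lamb library 1 the log2 difference of SESN3 was 0.73 and that of CCNG2 0.43, against 1.31 and 0.84 with all libraries. Both genes are among the 15 FOXO list genes called higher, and edgeR's quasi-likelihood test lost both calls without that library (adjusted p = 0.0681 for SESN3 and 0.0639 for CCNG2). SESN3 also lost its call with limma-voom and without fetal library 2 or 3. CCNG2 also lost its call with upper quartile factors, a filter of 5 CPM in 3 libraries, limma-voom, the replicate block, and without fetal library 1, 2 or 3 or lamb library 2. The genes set side by side here were chosen after their values were seen, and no test was run on 3 lambs.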
